A study of Mus musculus with 6 samples.

Results

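The genes described here are 6 Schwann cell and myelin genes, Pmp22, Mbp, Prx, Mag, Sox10 and S100b, read in RNA-seq of mouse gastrocnemius, a calf muscle. They were chosen by gene symbol, with no measured value in the rule, and all 6 were found once each among the 46504 features of the deposited table. All 6 passed the filter on low counts. The libraries were 3 from wild-type mice held for 3 hours in tubes of 50 mL, once every 4 days, and labelled restraint at day 4, and 3 from wild-type mice labelled control at day 4. Strain, sex and age are not known here, and no label says that each library came from its own mouse, so p-values measure only the spread between libraries, which may be technical. Libraries held 44290720 to 44973655 counts in the restraint group and 44814050 to 51125779 in the control group.

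Schwann cells are the glia of peripheral nerve. A myelinating Schwann cell wraps one stretch of a motor or large sensory axon in many turns of its own membrane and compacts them into myelin, while a non-myelinating Schwann cell holds small axons without wrapping them, and terminal Schwann cells cover the nerve ending at the neuromuscular junction. A muscle sample holds the intramuscular nerve branches, so Schwann cell transcripts are a small part of its RNA. Sox10, a transcription factor of the whole Schwann cell lineage, acts with Pou3f1 to switch on Egr2, and Sox10 and Egr2 together drive the myelin genes. In bulk tissue such as this, fewer Schwann cells and less RNA per Schwann cell cannot be told apart.

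The promoters of 4 of the 6 genes are shown because the levels of the genes varied together, as described below. Each line gives 250 bases before a RefSeq transcript start in lower case and the first 30 transcribed bases in capitals, 5′ to 3′, on GRCm38.p6, and the strand is that of the gene. Where RefSeq gave several starts, the one nearest to a well-supported principal transcript start of the gene annotation was taken. The 4 lines are:
Pmp22, chr11:63131207-63131486, plus strand: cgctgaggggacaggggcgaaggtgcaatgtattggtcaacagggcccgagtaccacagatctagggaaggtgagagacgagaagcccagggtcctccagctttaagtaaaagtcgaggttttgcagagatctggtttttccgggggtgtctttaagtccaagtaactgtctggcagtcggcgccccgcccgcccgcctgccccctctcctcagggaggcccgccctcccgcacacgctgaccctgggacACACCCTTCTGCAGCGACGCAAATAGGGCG
Prx, chr7:27499074-27499353, plus strand: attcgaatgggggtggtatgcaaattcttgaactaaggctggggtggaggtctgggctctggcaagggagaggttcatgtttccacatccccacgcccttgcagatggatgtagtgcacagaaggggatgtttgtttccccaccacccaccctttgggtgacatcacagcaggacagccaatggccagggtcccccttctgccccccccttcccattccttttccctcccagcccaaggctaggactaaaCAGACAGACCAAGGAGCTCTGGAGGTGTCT
Mag, chr7:30914292-30914571, minus strand: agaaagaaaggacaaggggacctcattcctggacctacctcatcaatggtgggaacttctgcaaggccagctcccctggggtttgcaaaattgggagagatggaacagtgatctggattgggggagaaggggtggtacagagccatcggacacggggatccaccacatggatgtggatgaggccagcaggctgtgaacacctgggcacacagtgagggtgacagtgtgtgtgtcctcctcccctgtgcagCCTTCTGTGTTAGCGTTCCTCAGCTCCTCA
S100b, chr10:76253586-76253865, plus strand: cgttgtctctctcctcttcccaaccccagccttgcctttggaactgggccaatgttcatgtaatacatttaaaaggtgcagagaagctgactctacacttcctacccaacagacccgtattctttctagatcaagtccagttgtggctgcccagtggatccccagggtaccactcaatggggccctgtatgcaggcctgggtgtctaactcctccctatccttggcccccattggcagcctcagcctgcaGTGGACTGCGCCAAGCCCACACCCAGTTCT

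The Pmp22 window was the richest of these 4 in CpG, with 18 CpG dinucleotides and 60.0% GC in its 300 bases. The Prx, Mag and S100b windows held 3 CpG each, with 56.7%, 55.7% and 53.7% GC, beside a median of 7 CpG and 52.7% GC over 32817 RefSeq windows of the same length. The core letters of SOX sites, searched as ACAAAG or ACAATG on both strands, were in 0 of the 4 windows and in 28.6% of all windows. The letters GCGNGGGCG, those of EGR sites, were in 0 of the 4 and in 5.56% of all windows. These matches describe the windows only. RefSeq gave 4 windows for Pmp22 and 3 for Mag, and for both genes the window shown lies inside the gene span. Starts further upstream in these genes were not searched.

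The levels of the 6 genes differed between libraries of the same group. Restraint 3, control 2 and control 3 were the 3 highest libraries for every gene, and restraint 1, restraint 2 and control 1 were the 3 lowest. The summed level of the 6 genes was 83.6, 78.2 and 208 CPM (read counts scaled to library size with TMM factors) in restraint libraries 1 to 3, against 96.9, 252 and 159 CPM in control libraries 1 to 3. The 2 groups overlapped, and the highest of the 6 sums was 3.22 times the lowest. All 6 genes had a lower fitted level in restraint than in control, with a median log2 fold change of -0.44, while 50.87% of all 15448 features tested had a negative fold change and their median was -0.01. None of the 6 passed edgeR's quasi-likelihood test at an adjusted p of 0.05, and 0 had an unadjusted p under 0.05. The test called 282 of 15448 features, or 1.83%, of which 195 were higher and 87 lower in restraint. None of the 6 had groups that did not overlap, a condition that 3360 features, or 21.8%, met.

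**Figure D1:**
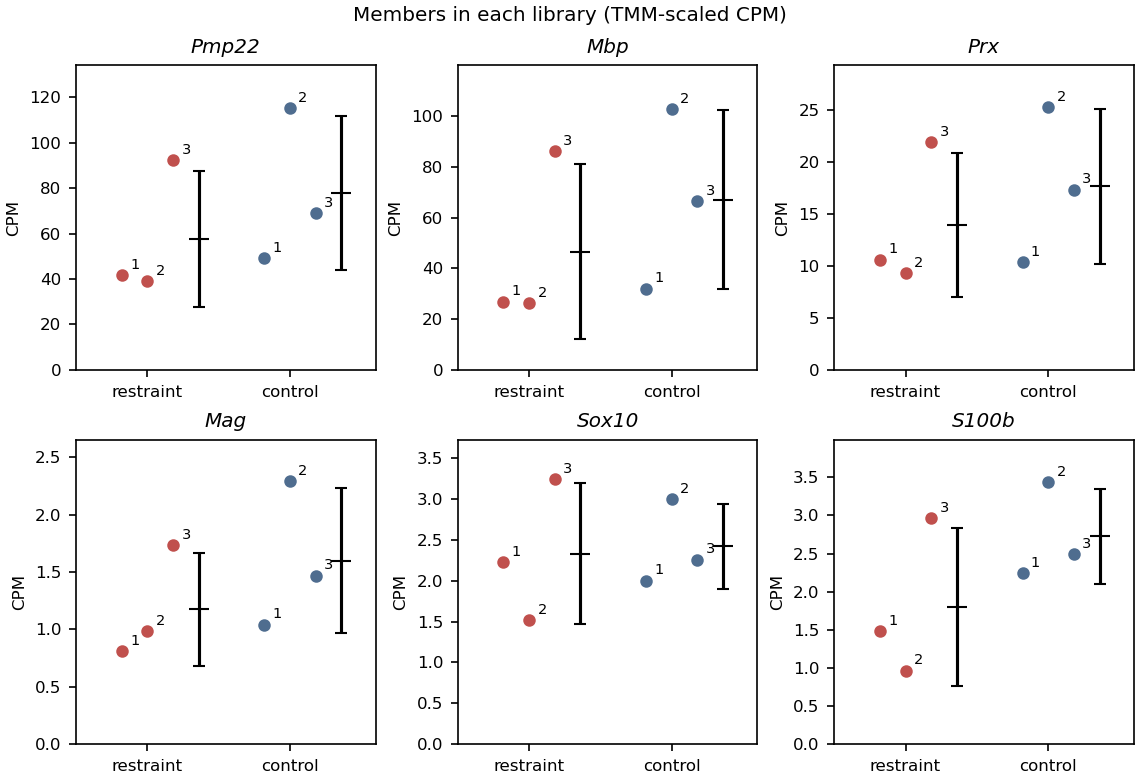
CPM of the 6 genes in each library, with restraint left of control, points numbered by replicate, and the mean and SD of each group as a bar to the right of its points. Restraint 3 and control 2 are the highest library of their group for every gene, and the groups overlap for all 6.

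Pmp22 (gene ID 18858, chr11:63128982-63159547) encodes a membrane protein of compact myelin that spans the membrane several times, and its duplication in humans causes the commonest form of Charcot-Marie-Tooth disease. It had 41.6, 39.1 and 92.3 CPM in restraint libraries 1 to 3, against 49.2, 115 and 69.0 CPM in control libraries 1 to 3. Restraint 3 lay above control 1 and control 3, so the groups overlapped. Pmp22 averaged 57.7 ± 29.998 CPM in restraint and 77.8 ± 33.9 CPM in control (SD, n = 3 each). Its log2 fold change was -0.43 ± 0.38 (SE; edgeR adjusted p = 0.658).

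Mbp (gene ID 17196, chr18:82475091-82585637) encodes myelin basic protein, which holds the inner faces of the membrane together. It had 26.8, 26.3 and 86.2 CPM in restraint, against 32.0, 103 and 66.3 CPM in control. Restraint 1, restraint 2 and control 1 were close to each other, and control 2 and restraint 3 were the highest. Mbp averaged 46.5 ± 34.4 CPM in restraint and 67.0 ± 35.3 CPM in control (SD, n = 3 each), with a log2 fold change of -0.53 ± 0.52 (SE; edgeR adjusted p = 0.697). It varied the most of the 6 genes, with a highest library 3.90 times its lowest.

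Prx (gene ID 19153, chr7:27499305-27520041) encodes periaxin, a scaffold protein that ties the outer Schwann cell membrane to its cytoskeleton through Drp2. Its levels were 10.6, 9.28 and 21.9 CPM in restraint, against 10.3, 25.2 and 17.3 CPM in control. Restraint 3 again stood among the high control libraries, and control 1 lay between restraint 1 and restraint 2. The means were 13.9 ± 6.93 CPM in restraint and 17.6 ± 7.46 CPM in control (SD, n = 3 each), with a log2 fold change of -0.34 ± 0.38 (SE; edgeR adjusted p = 0.737). Gm15541, an antisense gene that shares 300 exonic bases with Prx, had 0 counts in the 3 restraint libraries and 0.0613, 0.171 and 0.110 CPM in the control libraries. No source used here says whether counting used strand, so reads of this pair may have been mixed.

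Mag (gene ID 17136, chr7:30899175-30914922) encodes an adhesion protein of the innermost myelin membrane, which faces the axon. It was the least abundant of the 6 per length, and its values rest on 36, 46 and 75 counts in restraint and 51, 94 and 80 in control. These were 0.809, 0.985 and 1.74 CPM in restraint, against 1.04, 2.29 and 1.47 CPM in control. The groups overlapped, with restraint 3 above 2 of the 3 control libraries. The log2 fold change was -0.44 ± 0.38 (SE; edgeR adjusted p = 0.649).

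Sox10 (gene ID 20665, chr15:79154913-79164490), the lineage transcription factor, showed the smallest difference between groups. It had 2.22, 1.52 and 3.24 CPM in restraint, against 2.001, 3.00 and 2.26 CPM in control. The highest and the lowest of the 6 libraries were both restraint libraries. Sox10 averaged 2.33 ± 0.864 CPM in restraint and 2.42 ± 0.517 CPM in control (SD, n = 3 each). Its log2 fold change was -0.05 ± 0.29 (SE; edgeR adjusted p = 0.955).

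S100b (gene ID 20203, chr10:76253836-76261319) encodes a calcium-binding protein that is used as a Schwann cell marker and is also made by adipocytes. Its levels were 1.48, 0.964 and 2.96 CPM in restraint, against 2.25, 3.43 and 2.50 CPM in control. Restraint 1 and restraint 2 were below all 3 control libraries, and restraint 3 was above 2 of them. For restraint 2 the 95% exact Poisson interval ran from 0.703 to 1.29 CPM, and for restraint 3 from 2.47 to 3.52 CPM, so the spread within restraint was larger than counting error. S100b averaged 1.80 ± 1.04 CPM in restraint and 2.73 ± 0.627 CPM in control (SD, n = 3 each). Its log2 fold change of -0.60 ± 0.38 (SE) was the most negative of the 6 and had the lowest edgeR adjusted p of them, 0.515. Adiponectin (Adipoq), which only adipocytes make, had 15.7, 8.93 and 7.27 CPM in restraint, against 5.39, 15.6 and 15.6 CPM in control. Its order of libraries differed from that of S100b, while control 2 and control 3 were among the 3 highest libraries of both genes. The part of adipocytes in the level of S100b was not tested. S100b and Dip2a overlap on opposite strands by gene span and share 0 exonic bases.

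Per length, in the authors' TPM, the order of the 6 genes was the same in both groups. Pmp22 came first with 54.6 ± 25.9 TPM in restraint and 71.8 ± 24.2 TPM in control (SD, n = 3 each). Mbp followed with 34.6 ± 25.2 TPM in restraint and 52.2 ± 24.0 TPM in control, a level whose SD overlapped that of Pmp22. Prx came next with 5.07 ± 2.17 TPM in restraint and 6.33 ± 2.36 TPM in control. S100b had 1.86 ± 0.992 TPM in restraint and 2.79 ± 0.395 TPM in control, Sox10 had 1.49 ± 0.477 TPM in restraint and 1.52 ± 0.211 TPM in control, and Mag had 0.819 ± 0.339 TPM in restraint and 1.09 ± 0.342 TPM in control. In restraint, the SDs of S100b and Sox10 overlapped, while in control those of S100b and Sox10 did not.

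The spread between libraries of one group was large for these genes. The highest restraint library was 2.13 (Sox10) to 3.28 (Mbp) times the lowest, and the highest control library 1.497 (Sox10) to 3.20 (Mbp) times the lowest. Over all features tested, the median of this ratio was 1.28 in restraint and 1.31 in control. The biological coefficient of variation that edgeR fitted was 0.263 for Sox10, 0.326 for Prx, 0.326 for Mag, 0.329 for Pmp22, 0.333 for S100b and 0.437 for Mbp, beside a median of 0.169 over all features tested. Mbp stood at percentile 96.56 of that coefficient and Sox10 at percentile 80.06.

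The 6 genes varied together from library to library. Over the 6 libraries, the Pearson correlation of the log2 CPM of each gene with the mean of the other 5 was 0.994 for Pmp22, 0.985 for Prx, 0.983 for Mbp, 0.951 for Mag, 0.902 for S100b and 0.878 for Sox10. These are descriptions over 6 libraries that share depth and scaling. Averaged over the genes, the log2 level relative to each gene's own mean was -0.47, -0.63 and 0.51 in restraint libraries 1 to 3, against -0.29, 0.70 and 0.18 in control libraries 1 to 3. The 2 lowest of these r were those of the calcium-binding protein and the transcription factor, and no test compared them with the others. Mitochondrial genes took 13.2% to 19.3% of counts per library, the most in control 2, which was also the highest library for Pmp22, Mbp, Prx, Mag and S100b; the part of this in their levels was not tested.

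Among the 10 reported genes whose pattern was most like the mean of the 6 were 2 genes of the list of other myelin genes. Cldn19, a tight junction protein of myelin incisures (r = 0.987), had 2.04, 1.80 and 4.40 CPM in restraint, against 2.70, 5.99 and 3.41 CPM in control, and a log2 fold change of -0.55 ± 0.40 (SE; edgeR adjusted p = 0.568). Mal, a myelin proteolipid (r = 0.985), had 3.95, 2.64 and 7.82 CPM in restraint, against 3.98, 10.7 and 6.39 CPM in control, and a log2 fold change of -0.55 ± 0.44 (SE; edgeR adjusted p = 0.618). Both were lowest in restraint 2 and highest in control 2, and the groups overlapped. Ndrg1, a gene mutated in a demyelinating neuropathy, reached r = 0.985. The others were on none of the lists of nerve genes used here. They were Atxn7l2 (0.990), the most alike of the 10, Eri1 (0.986), Hspa5 (0.984), Carf (0.978), Thg1l (0.977), Sult1a1 (0.977) and Mtpap (0.975). In all, 103 of 15448 features, or 0.667%, had r of at least 0.9.

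Among other nerve genes, r of at least 0.9 was reached by most myelin genes and by few regulators of Schwann cells. Of 14 other genes of the myelin sheath, paranode and gap junctions, all 14 were tested, 8 had r of at least 0.9 with the mean of the 6 genes, and 0 were called in either direction. Their summed level was 41.9, 38.1 and 70.9 CPM in restraint, against 42.5, 76.6 and 56.7 CPM in control, and 13 of 14 had a negative log2 fold change, with a median of -0.11, which ran from -0.69 (without restraint 3) to -0.06 (without restraint 2) with 1 library left out. Drp2, the partner of periaxin, had 6.49, 4.31 and 12.9 CPM in restraint, against 5.15, 10.5 and 8.37 CPM in control (edgeR adjusted p = 0.990). Cnp, an enzyme of non-compact myelin, ranged less, with 10.9, 10.9 and 15.9 CPM in restraint, against 9.92, 16.8 and 12.7 CPM in control (edgeR adjusted p = 0.931). In both genes too, restraint 3 and control 2 were the highest libraries.

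Of 20 other transcription and signalling genes of Schwann cells, 17 were tested, and Plekha4 alone had r of at least 0.9. Egr2, Gfra3 and Sostdc1 came next with r of 0.842, 0.805 and 0.797, and the remaining tested genes had r of at most 0.422. Egr2, the transcription factor that drives myelination, had 0.696, 1.11 and 1.64 CPM in restraint, against 0.960, 1.58 and 1.45 CPM in control (r = 0.842, edgeR adjusted p = 0.836). Erbb3, the neuregulin receptor through which axons control Schwann cells, had 3.08, 5.31 and 3.63 CPM in restraint, against 3.29, 3.92 and 6.41 CPM in control, with r = 0.027 and an edgeR adjusted p of 0.826. It was highest in control 3 and restraint 2, a different order from that of the 6 genes. Ngfr, a neurotrophin receptor of immature and non-myelinating Schwann cells, had 0.359, 0.343 and 0.416 CPM in restraint, against 0.817, 0.512 and 0.661 CPM in control; the groups did not overlap, and its log2 fold change of -0.83 ± 0.33 (SE) had an edgeR adjusted p of 0.271. One gene of the list was called, Art3, a mono-ADP-ribosyltransferase that muscle also makes. Art3 rose to 177, 189 and 180 CPM in restraint, against 123, 136 and 133 CPM in control, with a log2 fold change of 0.48 ± 0.10 (SE; edgeR adjusted p = 0.0458); with any 1 of the 6 libraries left out it was not called, with adjusted p from 0.0746 to 0.248.

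**Figure D2:**
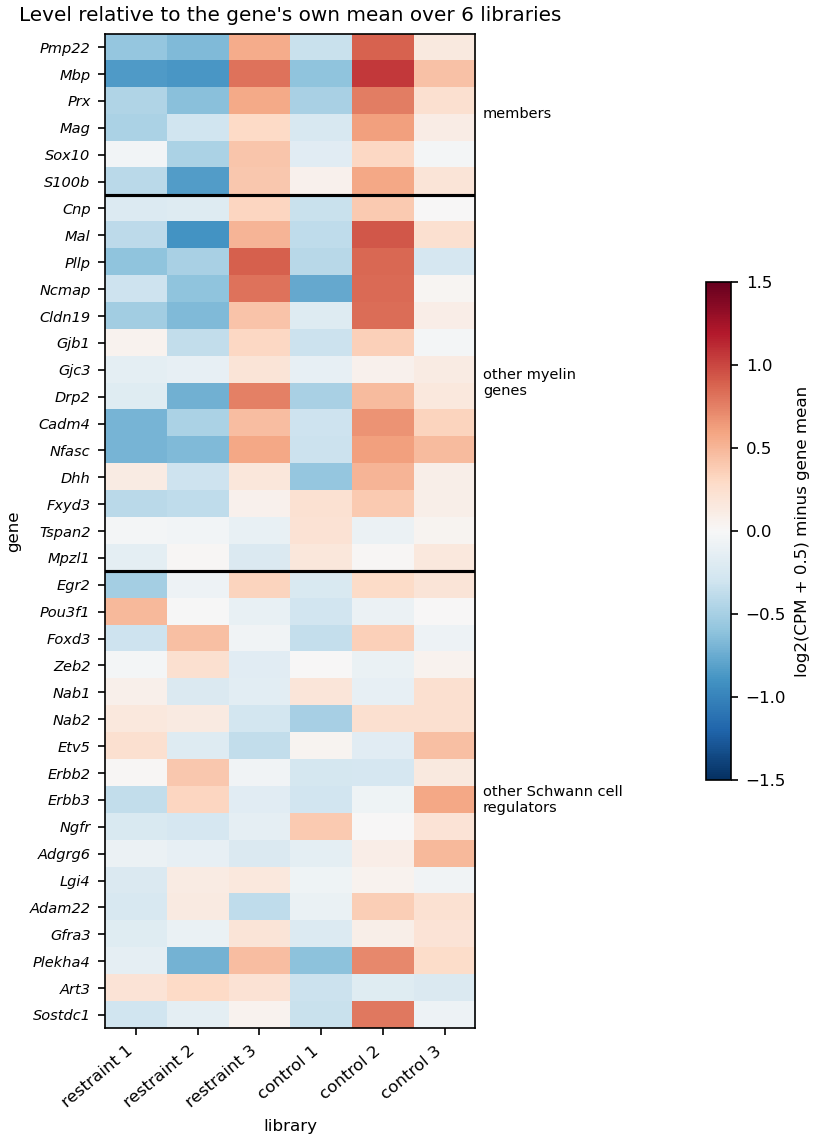
Log2(CPM + 0.5) of each gene minus its own mean over the 6 libraries, for the 6 genes, the other myelin genes and the tested Schwann cell regulators, with red above and blue below the mean. The columns of restraint 3 and control 2 are red down the 6 genes and nearly all of the other myelin genes, and this pattern breaks up among the regulators.

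Genes of non-myelinating, immature and terminal Schwann cells gave 0 calls among 8 tested of 10, with a median log2 fold change of 0.17, which was 0.02 without restraint 3 and 0.06 without control 1. Cdh19, a cadherin of Schwann cells and their precursors, had 1.73, 1.22 and 2.31 CPM in restraint, against 1.25, 1.80 and 1.54 CPM in control (edgeR adjusted p = 0.803). Scn7a, a sodium channel protein found in non-myelinating Schwann cells, had 5.21, 6.88 and 6.46 CPM in restraint, against 4.39, 6.63 and 5.29 CPM in control (edgeR adjusted p = 0.701). Ncam1, an adhesion molecule of non-myelinating Schwann cells that muscle fibres also make after loss of their nerve, had 6.25, 15.9 and 13.3 CPM in restraint, against 3.98, 5.55 and 5.12 CPM in control. Each restraint library lay above each control library for Ncam1, but its log2 fold change of 1.27 ± 0.31 (SE) had an edgeR adjusted p of 0.0892.

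Of 11 genes that Schwann cells use after nerve injury, 7 were tested and 1 was called. Jun, the transcription factor of the repair state and an immediate early gene in many cell types, rose to 89.1, 149 and 138 CPM in restraint, against 46.7, 56.8 and 54.7 CPM in control, with a log2 fold change of 1.25 ± 0.19 (SE; edgeR adjusted p = 0.0194). It was not called without restraint 2, restraint 3 or any 1 control library (adjusted p from 0.0517 to 0.134). Shh, another gene of the repair state, had 0 counts in all 6 libraries, and Gdnf, a trophic factor of repair cells, had 91 counts in all (edgeR adjusted p = 0.877). Jun did not follow the 6 genes (r = -0.235).

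Of 12 genes of myelin lipid and cholesterol synthesis, all had a negative log2 fold change, with a median of -0.23, and 0 were called; the median was -0.45 without restraint 3, -0.39 without control 1 and -0.12 without control 2. Scd2, a fatty acid desaturase that is abundant in nerve, followed the 6 genes (r = 0.954), with 17.6, 15.4 and 24.9 CPM in restraint, against 20.8, 30.3 and 21.2 CPM in control (edgeR adjusted p = 0.519). Fa2h, which makes the hydroxylated fatty acids of myelin, had 0.944, 1.14 and 3.33 CPM in restraint, against 1.001, 3.29 and 1.38 CPM in control (r = 0.911, edgeR adjusted p = 0.978). Fdft1, squalene synthase, which all cells use, was the most abundant of this list and nearly even, at 71.5 to 78.4 CPM in restraint and 71.8 to 79.0 CPM in control (edgeR adjusted p = 0.990).

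Of 10 other genes mutated in demyelinating Charcot-Marie-Tooth disease, 1 was called. Fgd4, an exchange factor for the small GTPase Cdc42 that Schwann cells need and that muscle also makes, fell to 8.09, 7.73 and 8.33 CPM in restraint, against 13.4, 13.9 and 14.3 CPM in control, with a log2 fold change of -0.78 ± 0.11 (SE; edgeR adjusted p = 0.0166). Its groups were well apart and each was narrow, a pattern unlike that of the 6 genes (r = 0.466). The direction stayed with each library left out, and the call was lost without restraint 3, control 1 or control 2 (adjusted p from 0.0512 to 0.0932).

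The 6 genes were next set against the summed counts of the 14 other myelin genes in the same library. This comparison was chosen after seeing the data. Its reason was that a ratio of Schwann cell genes does not change with the amount of nerve if all come from the same cells. Of the 14 genes, Tspan2 (r = -0.413) and Mpzl1 (r = -0.153) did not follow the 6 genes. The highest summed CPM of the 14 was 2.01 times the lowest, against 3.22 times for the 6 genes. The percents below can therefore still change with the amount of nerve. S100b was at 3.54%, 2.53% and 4.18% of that sum in restraint, against 5.29%, 4.48% and 4.40% in control, and these groups did not overlap. Its log2 difference was -0.49, with a two-sided exact permutation p of 0.1, the smallest that 3 against 3 libraries allow. Pmp22 was at 99.5%, 102.6% and 130.2% in restraint, against 115.9%, 150.5% and 121.7% in control, and Mbp at 64.1%, 69.0% and 121.6% in restraint, against 75.3%, 133.9% and 117.0% in control. For both, restraint 3 lay within the range of the control libraries and restraint 1 and 2 below it. The log2 differences were -0.22 for Pmp22 and -0.38 for Mbp, each with an exact permutation p of 0.3, -0.21 for Mag (p = 0.2), -0.12 for Prx (p = 0.7) and 0.13 for Sox10 (p = 0.5). The direction depended on the denominator: against Cldn19 alone the log2 differences were 0.13 for Pmp22 (exact permutation p = 0.1), 0.23 for Prx (p = 0.2), 0.14 for Mag (p = 0.5) and 0.49 for Sox10 (p = 0.2), and -0.02 for Mbp (p = 1) and -0.14 for S100b (p = 0.5). The tests share their denominator.

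**Figure D3:**
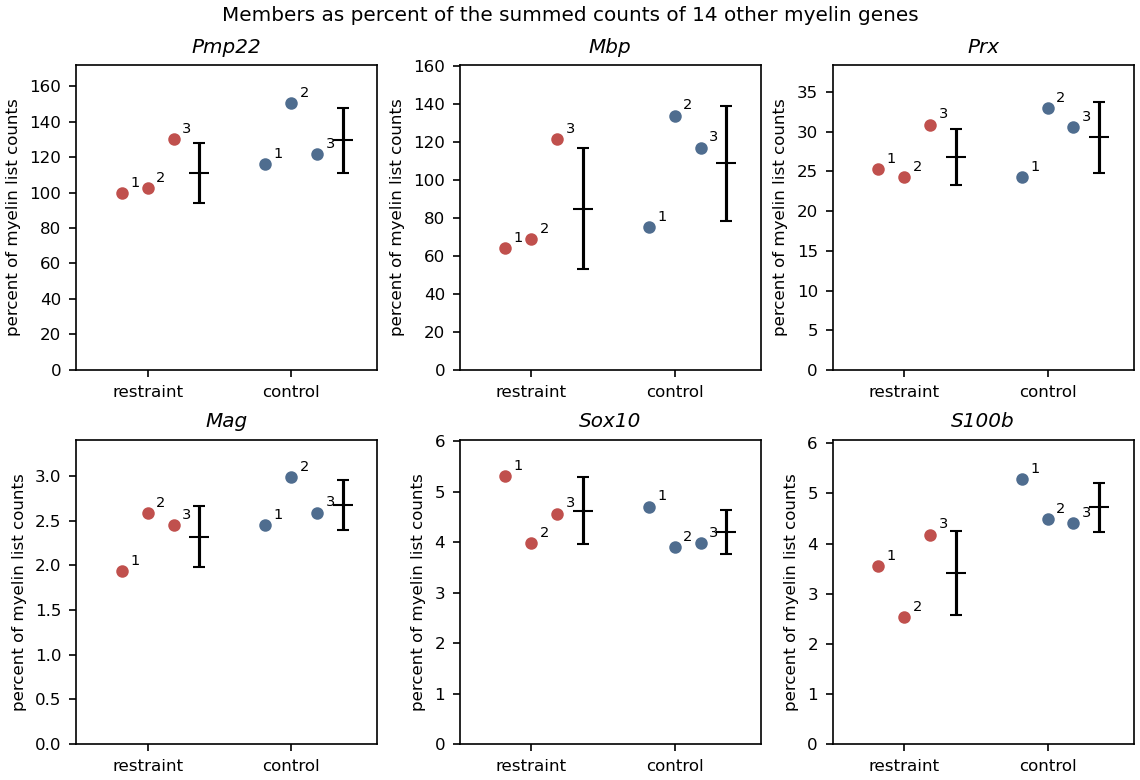
Counts of the 6 genes as a percent of the summed counts of 14 other myelin genes of the same library, with restraint left of control, points numbered by replicate, and the mean and SD of each group beside them. For S100b the 3 restraint points, at 2.53% to 4.18%, lie below the 3 control points, at 4.40% to 5.29%; for the other 5 genes the groups overlap.

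With the log2 summed CPM of the 14 other myelin genes as a covariate in the edgeR fit, an alternative also chosen after seeing the data, the log2 fold changes lay nearer to 0 in 5 of the 6 genes. They were -0.12 ± 0.10 for Pmp22, -0.14 ± 0.12 for Mbp, -0.02 ± 0.11 for Prx, -0.16 ± 0.25 for Mag and -0.42 ± 0.24 for S100b (SE), while Sox10 was at 0.12 ± 0.21. None passed the test, and the lowest edgeR adjusted p was 0.475, for S100b. In the fit by group alone the SE was 0.38 for Pmp22, 0.52 for Mbp and 0.38 for Prx. The summed level behind the covariate averaged 50.3 ± 17.9 CPM in restraint and 58.6 ± 17.1 CPM in control (SD, n = 3 each). Such a covariate also takes up any difference that all myelin genes share, so this fit cannot tell that apart from the amount of nerve.

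Single libraries set the size of the group difference. Without restraint 3 the log2 fold change was -0.94 for Pmp22, -1.33 for Mbp, -0.82 for Prx, -0.82 for Mag, -0.36 for Sox10 and -1.15 for S100b, with the lowest edgeR adjusted p, 0.204, for S100b. Without control 2 it was -0.03 for Pmp22, -0.08 for Mbp, 0.01 for Prx, -0.09 for Mag, 0.13 for Sox10 and -0.40 for S100b. None of the 6 genes was called with any library left out.

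**Figure D4:**
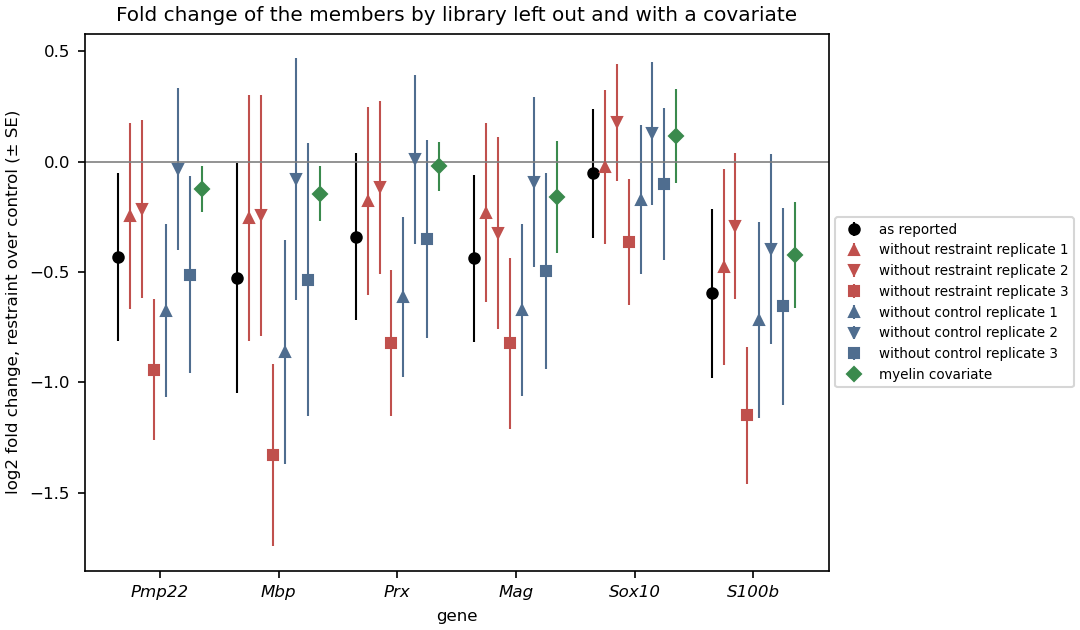
Log2 fold change of restraint over control with its SE for the 6 genes, from the fit to all libraries (black), with each restraint library (red) or control library (blue) left out, and with the summed level of 14 other myelin genes as a covariate (green). Leaving out restraint 3 moves every gene down, leaving out control 2 moves every gene up, and the covariate brings 5 of the 6 nearer to 0.

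The label of the 6 genes as Schwann cell genes was checked against markers of the other cells that use some of them. Oligodendrocytes of the central nervous system also make Mbp, Mag and Sox10, and of 7 genes that only they use 0 passed the filter, with Mog, Opalin and Olig2 at 0 in all 6 libraries. Their summed level was 0, 0.771 and 0.139 CPM in restraint, against 0.225, 0 and 0.110 CPM in control. The sum was highest in restraint 2, which held all 27 counts of Mobp, a myelin protein of oligodendrocytes, while Hapln2, a protein of their nodes, had 28 counts over 4 libraries. Of 11 axonal genes, whose transcripts are mostly kept in nerve cell bodies outside muscle, 3 passed the filter and 0 were called. Stmn2, a microtubule regulator of growing axons, had 3.64, 2.46 and 3.01 CPM in restraint, against 4.19, 3.78 and 2.83 CPM in control, with 921 counts in all, more than Sox10, S100b or Mag. It did not order the libraries as the 6 genes did (r = 0.155, edgeR adjusted p = 0.661). Prph, an intermediate filament protein, had 120 counts in all and Tubb3, a tubulin of neurons, 106, while the other 8 genes had 0 to 39, among them Nefl, a neurofilament, with 14 and Chat with 0. The perineurial list, for the sheath around nerve bundles, was nearly even at 28.9, 34.8 and 30.03 CPM in restraint, against 26.3, 26.5 and 31.8 CPM in control, with 0 of 10 genes called and 0 with r of at least 0.9.

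No summed marker list of another cell type of muscle had the same 3 highest libraries as the 6 genes, although single genes did. The summed fibroblast list lay between 710 and 1144 CPM in restraint and between 899 and 1021 CPM in control, the endothelial list between 260 and 315 CPM in restraint and between 289 and 348 CPM in control, and the adipocyte list between 593 and 769 CPM in restraint and between 417 and 720 CPM in control. The macrophage list was at 67.4, 199 and 104 CPM in restraint, against 74.5, 67.4 and 53.9 CPM in control, highest in restraint 2, where the summed level of the 6 genes was lowest. Of that list Cd68, a lysosomal protein, was called, with a log2 fold change of 2.86 ± 0.56 (SE; edgeR adjusted p = 0.0440); it was not called without restraint 2, restraint 3 or any 1 control library (adjusted p from 0.109 to 0.198). The tendon list gave 0 calls among 9, with a median log2 fold change of -0.91 (-0.60 without restraint 1), and was at 90.3, 227 and 167 CPM in restraint, against 248, 194 and 241 CPM in control. Muscle fibre genes summed to 165887, 159701 and 176658 CPM in restraint, against 164463, 180010 and 158026 CPM in control. Control 2 and restraint 3 had the highest of these sums, as for the 6 genes, but control 3 had the lowest. Restraint 3, control 2 and control 3 were the 3 highest libraries for 1 of 10 muscle fibre genes and 1 of 9 tendon genes. They were so for 0 of the fibroblast, endothelial, mural, adipocyte, macrophage, satellite cell and spindle genes. Among nerve lists the count was 9 of 14 other myelin genes and 4 of 17 tested Schwann cell regulators. It was 2 of 8 tested non-myelinating, 0 of 7 tested repair, 2 of 10 perineurial and 1 of 3 tested axonal genes. The lipid list had 4 of 12 and the Charcot-Marie-Tooth list 1 of 10. The share over all features was not computed, so these counts have no background beside them. The muscle fibre gene was Myh4, a fast myosin heavy chain (r = 0.913 with the mean of the 6 genes). The tendon gene was Scx, a transcription factor of tendon cells (r = 0.899). Scx had 2.90, 2.25 and 3.59 CPM in restraint, against 3.27, 4.04 and 3.56 CPM in control (edgeR adjusted p = 0.525). The part of other cell types in the levels of the 6 genes was not tested.

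**Figure D5:**
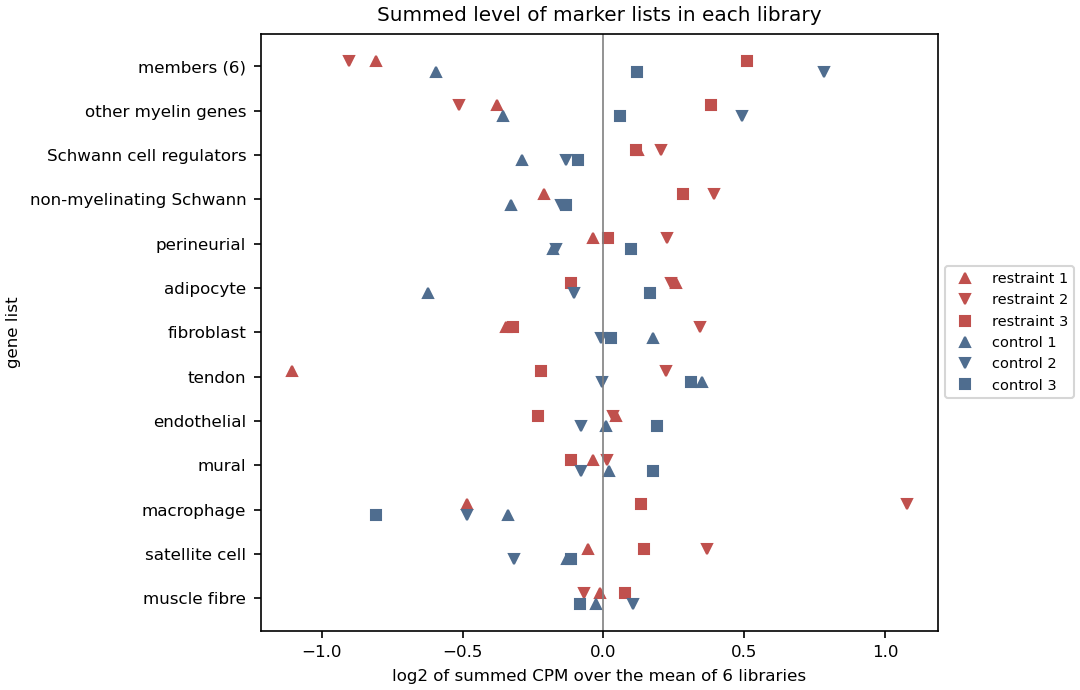
Log2 of the summed CPM of each marker list over its mean of the 6 libraries, with restraint libraries drawn above control libraries in each row. In the rows of the 6 genes and the other myelin genes, restraint 3, control 2 and control 3 all lie to the right of restraint 1, restraint 2 and control 1, an order that no row of another cell type shows.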

How the data were processed

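PolyA RNA of gastrocnemius was sequenced in 6 libraries, grouped by the treatment label and numbered by the title. The submitters' processing notes list bcl2fastq 2.20.0, Trimmomatic, HISAT2 2.1.0, StringTie 2.1.3b and GRCm38 (mm10), with no role or order. The table deposited by the authors gives, per the file headers, whole read counts, FPKM and TPM for each feature and library. Of 46504 features, 825 are unannotated loci, which stayed in library sizes and tests. Gene coordinates are those of RefSeq on GRCm38.p6.

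The test was edgeR's two-sided quasi-likelihood test (edgeR 4.0.16, R 4.3.3) on TMM-scaled counts. Features passed filterByExpr at 10 counts, and 15 in total, and p-values were adjusted by Benjamini-Hochberg over 15448 features with a threshold of 0.05. SE is the log2 fold change over the square root of F. CPM are scaled by TMM, and a count of 3 is worth 0.0551 to 0.0731 CPM. Likeness is Pearson's r of log2(CPM + 0.5) over 6 libraries, and the 10 most alike have an average log2 CPM of at least 1. Ratios to the summed counts of 14 other myelin genes used exact permutation; results planned on a further gene are not reported here. The fit was tested on simulated data.

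The alternatives tried were scaling by library totals, upper quartiles or DESeq2 size factors, no filter or a stricter one, the test of DESeq2 1.42.0, limma 3.58.1 (voom, or log2 of FPKM or TPM plus 1 or 0.1), robust dispersion, a replicate block, no unannotated or mitochondrial features, each library left out, and the summed level of the 14 myelin genes as a covariate. The 6 genes, the lists and the rule for named genes (all 6, called list members or the most abundant, and fixed markers) were chosen with earlier results of these data known. Ndrg1, Fa2h, Shh, Gdnf, Plekha4, Gfra3, Sostdc1, Tspan2, Mpzl1, Myh4, Scx, Stmn2, Prph, Tubb3, Mobp, Hapln2, and the oligodendrocyte and axonal genes at 0 were named beyond that rule, after their values were seen.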

Additional observations from a re-analysis of the deposited data

How the results depend on the processing

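None of the 6 genes was called under any of 20 alternatives. Pmp22, Mbp and S100b kept a negative log2 fold change in all 20, Prx in 19 of 20, and Mag in 18 of 18 and Sox10 in 15 of 18, since these last 2 were under the minimum in the FPKM fits. Sox10 was at 0.116 with the summed level of other myelin genes as a covariate. Without control 2, Prx was at 0.0112 and Sox10 at 0.129, and Sox10 was at 0.179 without restraint 2; their ranges with 1 library left out were -0.82 to 0.01 for Prx and -0.36 to 0.18 for Sox10. Relative to Cldn19 in place of the summed myelin genes, the log2 differences of Pmp22, Prx and Mag turned to 0.130, 0.233 and 0.143. With 1 library left out, the ratio to the summed genes ranged from -0.347 to -0.111 for Pmp22, -0.668 to -0.206 for Mbp, -0.249 to -0.0301 for Prx, -0.294 to -0.0847 for Mag, 0.0284 to 0.235 for Sox10 and -0.654 to -0.291 for S100b. Art3 was called under 5 of 20 alternatives, Cd68 under 7, Fgd4 under 13 and Jun under 15, with unchanged sign in all. Without restraint 3 the median of the myelin list was -0.69, that of the non-myelinating list 0.0178 and that of the lipid list -0.450. The count of features called was 282, and 809 by DESeq2, 153 with log2(FPKM + 1), 155 with log2(FPKM + 0.1), 122 with log2(TPM + 1), 60 with the replicate block and 187 with that covariate; with 1 library left out it ran from 16 (without control 1) to 350 (without restraint 1), with 51 without control 2, 98 without restraint 2 and 55 without restraint 3. The cause of these shifts was not tested. Deviations from the group mean, over all tested features, correlated at 0.0107, -0.26 and -0.271 in same-numbered libraries. Deviations within a group depend on each other, so these correlations cannot tell whether libraries were paired by number. Control 2 and restraint 3, the highest libraries of the 6 genes, correlated at 0.282, and control 3 and restraint 2 at 0.259. The remaining pairs lay from -0.0217 to 0.0137. The part of such deviations across all features in the levels of the 6 genes was not tested. Mag, Sox10 and S100b rest on 36 to 141 counts per library, and 3 libraries per group limit all 6.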

Other observations

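The ratio of S100b to Sox10 was 0.667, 0.634 and 0.914 S100b counts per Sox10 count in restraint libraries 1 to 3, against 1.122, 1.15 and 1.11 in control. These groups did not overlap, and the share of other gene ratios without overlap was not computed. The control libraries differed by 1.53 times in the CPM of S100b. The S100b ratio rests on 45 to 141 counts of S100b and 71 to 140 counts of Sox10 per library. Of the 5 ratios to Sox10 it was the only one without overlap: Pmp22 was at 18.7, 25.7 and 28.5 per Sox10 count in restraint, against 24.6, 38.5 and 30.5 in control, and Mbp, Prx and Mag overlapped too. The S100b ratio was singled out after its values were seen, and none of the 5 was tested.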
